A study of Mus musculus with 3 samples.

Results

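The S100 calcium-binding protein family was described in RNA sequencing of cultured mouse cortical astrocytes. The members were S100b, S100a1, S100a4, S100a6, S100a11, S100a13 and S100a16, taken from the deposited table by gene symbol, and all 7 of the 7 had a row among 19471 genes. There is 1 group, with 3 biological replicates, each named for 1 pup (numbers 5, 6 and 8 for replicates 1, 2 and 3). All are wild type (WT), from cortex at postnatal day 1 (P1) by their titles, although their descriptions carry the prefix P0, and they were kept for 7 days in culture before RNA was taken. No other genotype, age or treatment was analysed here, so levels were compared between genes within a library, and between libraries. The labels do not give the sex of the animals.

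S100 proteins are small calcium sensors that carry a pair of EF-hand calcium-binding loops and work mostly as dimers. On binding calcium they expose a surface that docks onto partner proteins such as annexins, myosin heavy chains and p53, and several are also released and act on the receptor for advanced glycation end products (RAGE, gene Ager). S100b is the member classically used as an astrocyte marker, and its expression is known to increase as astrocytes mature. S100a4 and S100a6 are better known from fibroblasts and other mesenchymal or dividing cells.

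Values are the authors' normalized read counts, and levels of different genes were compared only per kilobase (kb) of annotated exon. Library totals ran from 9858626 reads in replicate 3 to 25128038 in replicate 2, with 14380993 in replicate 1. All 7 members reached a mean of 10, the minimum for the tests, and their reads summed over the libraries ran from 149 for S100a4 to 7370 for S100a11. Per kb, S100a11 stood at the 99.4 percentile of the genes that reached that minimum, S100a1 at 97.0, S100a6 at 96.9, S100a16 at 96.2 and S100a13 at 92.7. S100a4 at the 43.5 percentile and S100b at 37.9 stood far below these 5.

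**Figure D1:**
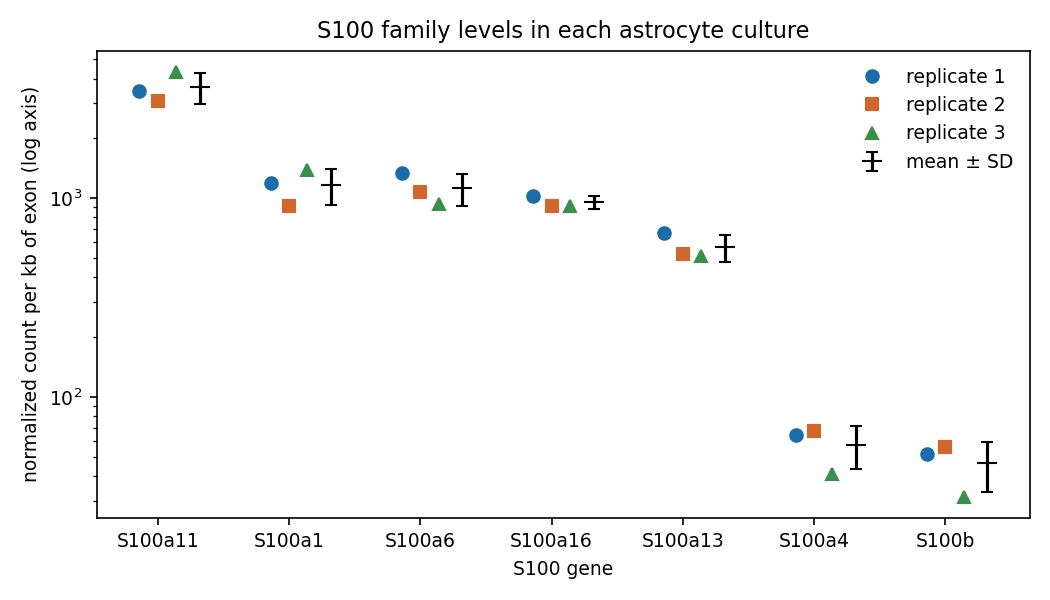
Level of each S100 member per library, as normalized count per kb of exon on a log axis, with the mean and SD over 3 replicates beside the points. S100a11 is highest and S100b lowest in each of the 3 libraries, and S100a4 lies just above S100b.

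S100b, the astrocyte marker of the family, had the lowest mean per kb, although S100a4 could not be told apart from it by the test given further on. In replicates 1, 2 and 3 its normalized counts were 76.5, 83.0 and 46.6, averaging 68.7 ± 19.4 (SD, n = 3). These values rested on 94, 176 and 39 reads, and their exact 95% Poisson intervals, which cover counting error only, were 61.8 to 93.6, 71.2 to 96.2 and 33.2 to 63.8. Replicate 3 was the low library, with an interval that lay under that of replicate 2 and met that of replicate 1. Per kb the level of S100b was 46.3 ± 13.1 (SD, n = 3). All 10 of the 10 astrocyte markers set beside it had a higher mean level per kb, from 72.1 for the glutamate transporter gene Slc1a2 to 12395 for the intermediate filament gene Gfap. By the same test 9 of the 10 lay above S100b, beside 49.1% of all genes, and Slc1a2 was not called (adjusted p = 0.0708, limma). S100b lies on chromosome 10 of mm10, apart from the other members, at chr10:76253853-76261159 on the plus strand, as 1 annotated transcript with 1484 bases of exon.

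S100a4, also called metastasin, binds non-muscle myosin IIA and is widely used as a fibroblast marker. It had normalized counts of 37.4, 39.2 and 23.9 in replicates 1, 2 and 3, from 46, 83 and 20 reads, averaging 33.5 ± 8.34 (SD, n = 3). Again replicate 3 was lowest. Per kb it reached 57.4 ± 14.3 (SD, n = 3). This value is uncertain, because 302 of the 584 exon bases of S100a4 (51.7%) are also annotated to the gene Gm42674 on the same strand, and how reads in such bases were assigned is not given in the sources used here. Fibroblast markers were mixed: Islr and Ogn stood at 1002 and 646 per kb, the collagen gene Col1a1 at 90.3, and the proteoglycan genes Dcn and Lum at 2.47 and 0.898.

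The 250 bases before the RefSeq start held 2 CpG dinucleotides in S100b and 2 in S100a4, against a median of 6 over 32851 mouse windows of the same length. The abundant S100a16 had 1 and 3 before its 2 RefSeq starts, so a low count did not separate the low members from the rest. A TATA box (TATAAA, both strands searched), the element that positions RNA polymerase II, was found from 31 to 26 bases before the start of S100a4 and in 12.4% of all windows. The sequences are RefSeq's for GRCm38.p6, 5′ to 3′ on the plus strand, at chr10:76253586-76253835 for S100b and chr3:90603520-90603769 for S100a4, and they are shown because these members stand apart from the rest in level. Capitals mark the TATA box, and a match of letters is a description, not a site in use.
S100b: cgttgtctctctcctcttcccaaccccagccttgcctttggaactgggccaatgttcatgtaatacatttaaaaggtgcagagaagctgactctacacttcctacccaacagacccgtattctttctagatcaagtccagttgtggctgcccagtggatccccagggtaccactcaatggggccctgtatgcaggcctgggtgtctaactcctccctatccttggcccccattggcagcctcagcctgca
S100a4: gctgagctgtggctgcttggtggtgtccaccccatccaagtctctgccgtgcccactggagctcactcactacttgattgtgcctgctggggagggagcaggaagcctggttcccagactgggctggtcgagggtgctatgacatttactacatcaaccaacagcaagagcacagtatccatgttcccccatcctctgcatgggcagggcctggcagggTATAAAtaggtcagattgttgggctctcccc

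S100a11, also known as calgizzarin, binds annexin A1 and takes part in repair of the plasma membrane. It was the most abundant member, at normalized counts of 1764, 1583 and 2206 in replicates 1, 2 and 3, or 1851 ± 321 (SD, n = 3). Replicate 3 was the high library here. Per kb it reached 3623 ± 627 (SD, n = 3), which was 39.4% ± 3.21 (SD, n = 3) of the summed per-kb level of the 12 S100 genes with a row. The share was 22.5% without division by exon length and 30.5% with the longest basic transcript as length. S100a10, outside the set of members, had 17.6% per kb. Without division by exon length it had 23.8%, more than S100a11. Among the 50-base stretches of its transcript, 41.1% also occur in annotated pseudogenes, so reads could be lost or split there. Only Gm12854 of those 3 pseudogenes was analysed, and it stood at 4.74 ± 2.24 (SD, n = 3) from 19 reads in all.

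The window before the start of S100a11 held 11 CpG dinucleotides. It also held 2 matches to the AP-1 motif (TGANTCA), which occurs in 6.75% of all windows, and 3 GC boxes (GGGCGG, bound by Sp1), which occur in 32.7%, with both strands searched and no overlap between motifs. The window before 1 of the S100a16 starts held 1 match to each of these motifs. The part outside annotated exons is chr3:93520246-93520487 (GRCm38.p6, RefSeq, plus strand), with motif matches in capitals.
S100a11: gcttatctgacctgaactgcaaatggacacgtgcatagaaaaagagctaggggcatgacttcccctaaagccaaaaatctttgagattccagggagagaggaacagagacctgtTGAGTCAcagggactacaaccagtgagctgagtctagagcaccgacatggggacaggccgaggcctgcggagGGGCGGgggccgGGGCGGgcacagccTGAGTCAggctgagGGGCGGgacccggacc

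S100a6, also called calcyclin, binds the calcyclin-binding protein Cacybp and is known to be induced by growth factors. Its normalized counts were 1833, 1476 and 1279 in replicates 1, 2 and 3, averaging 1529 ± 281 (SD, n = 3). Replicate 1 was the highest and replicate 3 the lowest. The level per kb was 1119 ± 205 (SD, n = 3) over 1367 bases of exon. That length includes a transcript annotated for nonsense-mediated decay, and the longest transcript of the basic set has 731 bases. The window before its start held 3 CpG dinucleotides and none of the 3 motifs searched, and is shown for contrast with S100a11 as the part outside exons, chr3:90612644-90612881 (GRCm38.p6, RefSeq, plus strand).
S100a6: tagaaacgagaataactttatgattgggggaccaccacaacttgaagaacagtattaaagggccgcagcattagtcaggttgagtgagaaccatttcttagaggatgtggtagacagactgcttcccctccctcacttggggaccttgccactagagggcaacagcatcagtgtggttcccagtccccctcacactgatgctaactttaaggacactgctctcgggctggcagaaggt

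S100a16 is a widely expressed member, and in the human protein only 1 of the EF-hands binds calcium with appreciable affinity. It had normalized counts of 1666, 1477 and 1474 in replicates 1, 2 and 3, or 1539 ± 110 (SD, n = 3), and 952 ± 67.8 per kb. It was the steadiest member, and its replicates 2 and 3 were nearly equal.

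S100a1 and S100a13 are transcribed away from each other on chromosome 3, from annotated starts with 42 bases between them. S100a1, a regulator of calcium cycling best known from heart muscle, had normalized counts of 824, 634 and 959 in replicates 1, 2 and 3, averaging 805 ± 164 (SD, n = 3). S100a13, which assists the release of FGF1 and interleukin 1 alpha outside the classical secretory route, had 476, 372 and 365, averaging 404 ± 62.1 (SD, n = 3). S100a1 was highest in replicate 3, where S100a13 was lowest. Per kb S100a1 stood at 1161 ± 236 and S100a13 at 565 ± 86.9 (SD, n = 3 each). S100a1 lay above S100a13 in 3 of 3 libraries, by 0.83, 0.81 and 1.44 on the log2 scale in replicates 1, 2 and 3. The windows of 250 bases before the RefSeq starts of S100a1 and S100a13 held 8 and 13 CpG dinucleotides, against the median of 6. These windows overlap, so the counts are not independent, and 93 and 192 of their bases lie in annotated exons. Neither window held a match to the 3 motifs. The RefSeq starts lie 105 bases apart, and the starts with 42 bases between them are those of GENCODE. That stretch of 42 bases, chr3:90514393-90514434 (GRCm38.p6, RefSeq sequence, plus strand), holds 1 CpG dinucleotide and no match to the 3 motifs.
S100a1 to S100a13: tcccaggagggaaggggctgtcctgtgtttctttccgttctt

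The members on chromosome 3 did not share a level with their neighbours. S100a1 (chr3:90511034-90514392, minus strand), S100a13 (chr3:90514435-90524581), S100a16 (chr3:90537254-90543151), S100a4 (chr3:90603771-90606045) and S100a6 (chr3:90612882-90624181), the last 4 on the plus strand, lie within 113 kb. In that order their levels per kb were 1161, 565, 952, 57.4 and 1119, so among the members S100a4 lay between more abundant ones. Genes outside the set lie closer to it. S100a3 (chr3:90560578-90602702), between S100a16 and S100a4, stood lower, at 1.66 per kb. S100a5 (chr3:90608523-90611780) lies between S100a4 and S100a6. S100a11 (chr3:93520488-93526287) stands 2896 kb further on, and S100a10 starts 28.8 kb beyond it. S100a10, the annexin A2 partner also known as p11, was not a member of the set and stood at 1625 ± 312 per kb (SD, n = 3). Of the other family genes with a row, S100a3, S100a7a, S100g and S100z had 8 to 42 reads in all and means under 10, and S100z was at 0 in replicate 2. S100a5, S100a8, S100a9 and S100a14 were not analysed here.

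Every pair of members was compared to ask which neighbours in the order of levels could be told apart. Each gene was set against the lower gene of the pair, as a within-library difference of log2(value + 1) per kb, in an intercept-only limma model fitted to 13896 genes, with Benjamini-Hochberg adjustment over all of them. Of the 21 pairs, 18 had an adjusted p under 0.05, and in 17 all libraries of the upper gene lay above all libraries of the lower one. Above S100b were 5 of 6 members, while 49.1% of all genes lay above it and 26.7% below it. Of the 6 other members, 5 lay above S100a4, as did 44.5% of all genes, and 4 lay above S100a13, as did 5.25%. Above S100a16 were 2 of the 6 (3.09% of all genes), above S100a6 and above S100a1 only S100a11 (2.15% and 1.83%), and above S100a11 none (0.425%). These counts, like those of the 21 pairs, follow from the order of the members' own levels and are a description. No share over pairs of all genes was computed to stand beside the 18 and the 17.

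S100a11 exceeded S100b by 6.30 ± 0.34 (SE) on the log2 scale, or 78.7-fold, in 3 of 3 libraries (adjusted p = 6.93e-73, limma). Without division by exon length the difference was 4.76. With a separate variance for each gene the adjusted p was 0.0355, and over all alternatives it stayed at or below that value. The other 4 members above S100b exceeded it by 4.65 (S100a1), 4.60 (S100a6), 4.38 (S100a16) and 3.62 (S100a13). Without division by exon length S100a1 exceeded it by 3.55 and S100a13 by 2.57, and with the longest basic transcript as length S100a6 exceeded it by 5.50. S100a4 exceeded S100b by only 0.34 ± 0.36 (SE), with a 95% interval from -0.36 to 1.04 (adjusted p = 0.381, limma). It was the higher gene in 3 of 3 libraries, by 0.33, 0.28 and 0.41 in replicates 1, 2 and 3. The sign of that difference turned without division by exon length, to -1.004 (adjusted p = 0.00582, limma). With the bases shared with Gm42674 taken out of the length of S100a4, and its reads unchanged, it was 1.39 (adjusted p = 0.000169, limma). That setting holds only if no read in those bases was counted for S100a4, which is not known. With separate variances the adjusted p was 0.0400, and over all alternatives the adjusted p ran from 0.000169 to 0.681. The very small p-values, and the width of the S100a4 interval, come from a variance that limma shares among genes. That interval is wider than the spread of the 3 library differences of this pair. All differences from S100b share its 3 values.

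**Figure D2:**
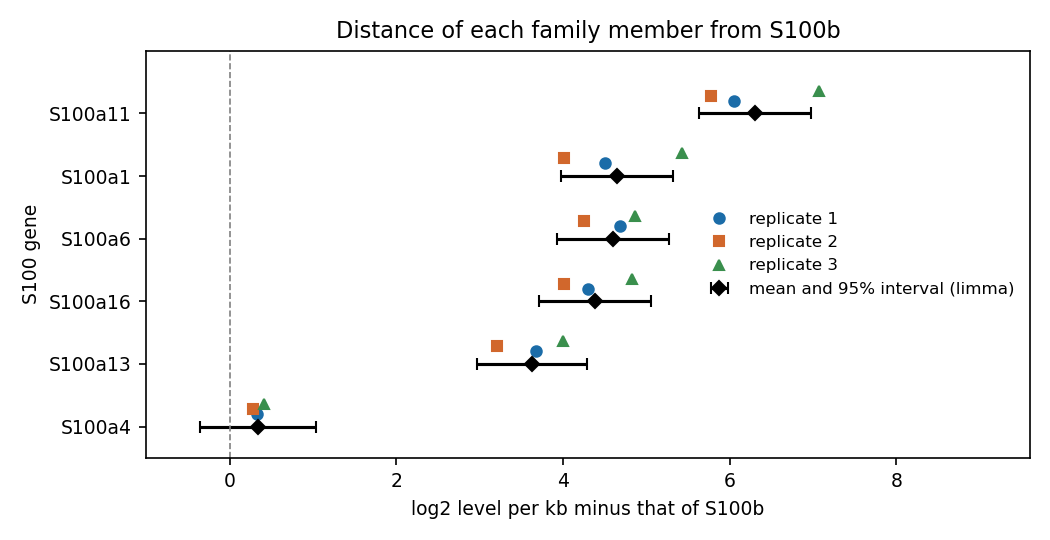
Log2 level per kb of each member minus that of S100b, with the 3 libraries as coloured points and the limma mean with its 95% interval in black. The interval of S100a4 spans 0, from -0.36 to 1.04, and those of the other 5 lie above it.

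S100a11 led the next member, S100a1, by 1.65 ± 0.25 (SE), or 3.13-fold (adjusted p = 3.72e-11, limma, and 0.00511 with separate variances). S100a11 led S100a6 by 1.70, a call that ended without division by exon length (0.28, adjusted p = 0.187, limma), and by 0.79 with the longest basic transcript as length. S100a1, S100a6 and S100a16 were close together. S100a1 minus S100a6 was 0.05 with a 95% interval from -0.35 to 0.45 (adjusted p = 0.811, limma), and S100a1 was the higher gene in 1 of 3 libraries. S100a6 minus S100a16 was 0.22 with an interval from -0.003 to 0.44 (adjusted p = 0.0534, limma) and was above 0 in 3 of 3 libraries. That difference passed the threshold without replicate 3 (0.31, adjusted p = 0.0328, limma), with the filter set at a mean of 1 (adjusted p = 0.0471) and with the longest basic transcript as length (0.60, adjusted p = 7.95e-05), and over all alternatives the adjusted p ran from 7.95e-05 to 0.832. S100a1 minus S100a16 was 0.27 (adjusted p = 0.0472, limma), a call that ended without replicate 3, where the difference was 0.10 (adjusted p = 0.486), without a trend in the variance (adjusted p = 0.102) and with separate variances (adjusted p = 0.269). With the longest basic transcript as length, S100a1 lay 0.82 below S100a6 (difference -0.82, adjusted p = 5.92e-05, limma), so the order among these 3 genes depends on the length used. S100a16 exceeded S100a13 by 0.76 ± 0.18 (SE), or 1.69-fold (adjusted p = 2.21e-05, limma), and S100a13 exceeded S100a4 by 3.28 ± 0.29 (SE), or 9.74-fold (adjusted p = 2.54e-29, limma). The first difference was 1.93 without division by exon length. The second was 2.23 with the bases shared with Gm42674 taken out of the length of S100a4 and its reads unchanged.

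Reads of 6 of 7 members differed between the 3 cultures by more than counting error. A chi-square test of the whole reads, with Benjamini-Hochberg adjustment over 13941 genes, called these 6, beside 55.4% of all genes. With 1 replicate left out it called 4 to 6 members, beside 35.8% to 38.9% of all genes. The test sets the spread between pups against counting alone, so genes with many reads are called more readily, 65.8% of those with a mean of 100 or more. S100a11 gave an adjusted p of 7.95e-29, S100a6 3.94e-25, S100a1 5.64e-21, S100a13 7.91e-06, S100a16 2.12e-05 and S100b 0.0104, while S100a4 gave 0.190 on its 149 reads. The call of S100b ended without replicate 3 (adjusted p = 0.714), and those of S100a13 and S100a16 ended without replicate 1 (adjusted p = 0.894 and 0.952). The highest library exceeded the lowest 1.78-fold for S100b, 1.64-fold for S100a4, 1.51-fold for S100a1, 1.43-fold for S100a6, 1.39-fold for S100a11, 1.30-fold for S100a13 and 1.13-fold for S100a16. The SD of log2 values exceeded the median of genes of similar mean (0.5 to 2 times) for 6 of 7 members. S100a1, at 0.30, stood at the 94.5 percentile of such genes, S100a6 at 92.6, S100a11 at 90.9, S100b at 89.2, S100a13 at 75.7, S100a4 at 67.3 and S100a16 at 36.7.

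**Figure D3:**
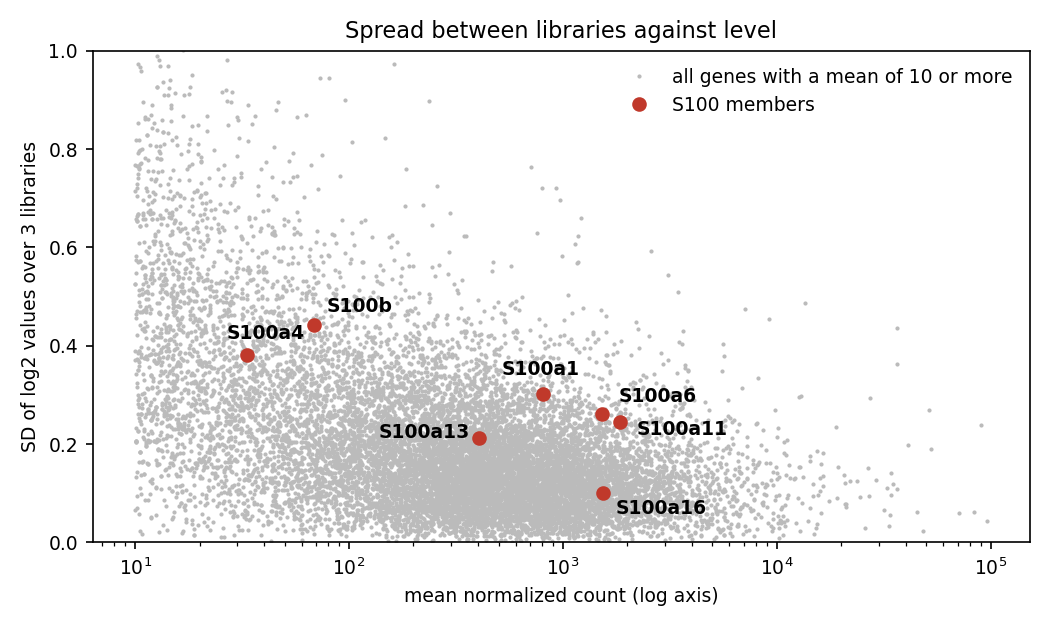
SD of log2 values over the 3 libraries against mean normalized count on a log axis, with grey points for the genes that reached a mean of 10 and red points for the S100 members (the axis ends at 1, which leaves out 58 genes). S100b has an SD of 0.44 at a mean of 68.7, and S100a16 an SD of 0.10 at a mean of 1539.

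The members fell into different orders across the libraries. Replicate 3 was the lowest library of 5 of 7 members and the highest of S100a1 and S100a11. No share over all genes was computed to stand beside this count, which is a description. Replicates 2 and 3 of S100a13 and S100a16, and replicates 1 and 2 of S100b and S100a4, were not told apart by the chi-square test. In S100a1, S100a11 and S100a10 replicate 3 was highest and replicate 2 lowest. In S100a6, S100a13 and S100a16 replicate 1 was highest and replicate 3 lowest, and in S100b and S100a4 replicate 2 was highest and replicate 3 lowest. These are 3 cultures with no order, and effects of the pup, of its culture and of the library made from it cannot be told apart.

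**Figure D4:**
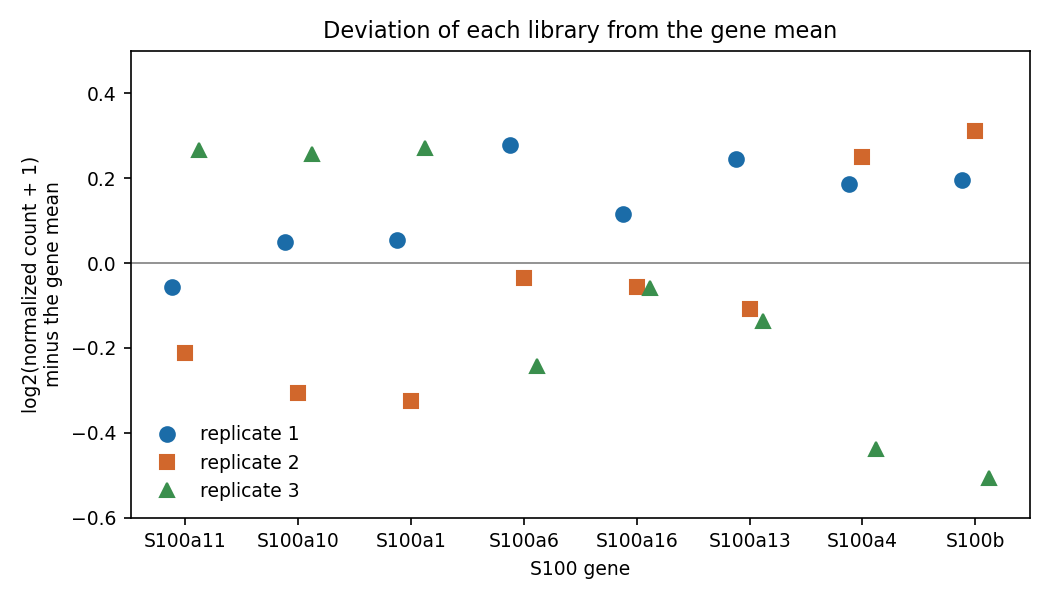
Log2(normalized count + 1) of each library minus the mean of that gene, for the 7 members and S100a10, with 1 symbol per replicate. Replicate 3 lies above the mean in S100a11, S100a10 and S100a1 and lowest in the other 5 genes, down to -0.51 in S100b.

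Marker genes of the cells in these cultures also varied between libraries. The summed normalized count of the 10 astrocyte markers ran 108662, 117118 and 95374 in replicates 1, 2 and 3. Gfap alone gave 54430, 57624 and 44794 of it, and other markers took other orders, with Sox9 highest in replicate 3 and Aldh1l1 in replicate 1. All 8 microglial markers were tested and lay above S100b, as did 49.1% of all genes, led by the complement gene C1qa at 3697 per kb. Their sum was 27079, 21082 and 18583, although Ctss and Aif1 were lowest in replicate 2. The sum of the 8 fibroblast markers was 6811, 6706 and 6293. Islr alone gave 3109, 2265 and 2698 of it, and every other fibroblast marker listed was highest in replicate 2. The fibroblast sum was thus highest in replicate 1 through Islr only. The microglial and fibroblast sums were highest in replicate 1 and lowest in replicate 3, as were S100a6, S100a13 and S100a16. The astrocyte sum was highest in replicate 2 and lowest in replicate 3, as were S100b and S100a4. Counting error leaves these member orders partly unresolved. Replicates 1 and 2 were not told apart in S100b or S100a4 (adjusted p = 0.714 and 0.914, chi-square without replicate 3). Nor were replicates 2 and 3 in S100a13 or S100a16 (adjusted p = 0.894 and 0.952, chi-square without replicate 1). The sum of the 6 ependymal markers, led by the cilia regulator Foxj1 at 3800 per kb, was 14092, 10375 and 12008. Foxj1 alone gave 11671, 8764 and 9465 of it, while Cfap44 and Tmem212 were highest in replicate 3. Of these 6 markers 3 lay above S100b, 2 below it and 1 on neither side, beside 49.1% and 26.7% of all genes above and below. The 2 below were Dnah5 at 25.5 and Tmem212 at 18.9 per kb. The part of these cells in the S100 levels was not tested, and in bulk RNA fewer cells of a type and less RNA per cell cannot be told apart. Mature oligodendrocyte genes, from a lineage that also makes S100b, included Cnp at 1476 per kb and Mbp at 9.18. The highest endothelial marker was Kdr at 76.4 per kb and the highest neuronal one Tubb3 at 83.8, while the defining genes Pecam1 and Snap25 were at 0.872 and 0.37. None of the neutrophil genes listed was analysed here.

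Genes whose library pattern lay nearest to that of S100b were sought among 10571 genes whose mean reached 100, by the largest difference of centred log2 values over the 3 libraries. They were Tlr7, a microglial sensor of RNA, with a largest difference of 0.037, the mitochondrial ribosome gene Mrps30 at 0.049 and the scrapie-responsive gene Scrg1 at 0.052. In all, 27 genes lay within 0.1 of S100b, and with 3 libraries such likeness describes these cultures only. These differences are smaller than the counting error of S100b, whose 39 reads in replicate 3 gave an interval of 33.2 to 63.8. Which genes lie nearest is therefore not resolved. For S100a1, 128 of 10570 genes lay within 0.1, and S100a10 was among the 3 nearest at 0.019.

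Annexins, the calcium-dependent membrane binders that pair with several S100 proteins, were abundant. All 8 annexins on the list lay above S100b per kb, with a median log2 difference of 3.35, beside a median of 0.65 and 49.1% higher over all genes. Anxa9, with a mean normalized count of 33.2, was not on the list. Anxa5 stood at 5001 per kb, Anxa2, the partner of S100a10, at 2261, Anxa6 at 1626 and Anxa3 at 817. Anxa7 at 264, Anxa11 at 146, Anxa4 at 118 and Anxa1, the partner of S100a11, at 109 were lower. S100a11 at 3623 per kb stood above its partner Anxa1, and S100a10 at 1625 below its partner Anxa2, with no test of either difference.

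Other S100 partners were closer to the level of a typical gene. Of 18 on the list 17 were tested, and 12 lay above S100b, 2 below it and 3 on neither side, with a median log2 difference of 1.72. Over all genes 49.1% lay above S100b and 26.7% below it, with a median of 0.65. The highest per kb were Myh9, the myosin IIA heavy chain that S100a4 binds, at 707, Cacybp, the partner of S100a6, at 463, the capping protein gene Capza2 at 446 and the phosphatase gene Ppp5c at 441. The lowest were Il1a, the interleukin that S100a13 helps to release, at 3.03, Ager at 6.45 and Tlr4 at 17.4. Ager, which encodes RAGE, lay below S100b (adjusted p = 3.63e-12, limma) and had 63 reads in all, and Il1a had 23 reads and was not tested. Fgf1, the other cargo of S100a13, stood at 45.1 per kb with no call against S100b (adjusted p = 0.965, limma). Trp53, whose product binds S100b and S100a4, stood at 233.

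Other EF-hand genes covered a wide range. Of 25 listed, 22 were tested, and 18 lay above S100b and 4 below it, beside 49.1% and 26.7% of all genes. Their median log2 difference was 3.15, beside 0.65 over all genes. Among the highest were the calmodulin genes Calm3 at 3877 per kb and Calm2 at 2323 and the secretory pathway gene Calu at 1432. S100a11, at 3623, lay between Calm3 and Calm2. The lowest were the neuronal calcium sensors Vsnl1 at 0.919 and Hpca at 0.926, with 7 and 8 reads in all.

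**Figure D5:**
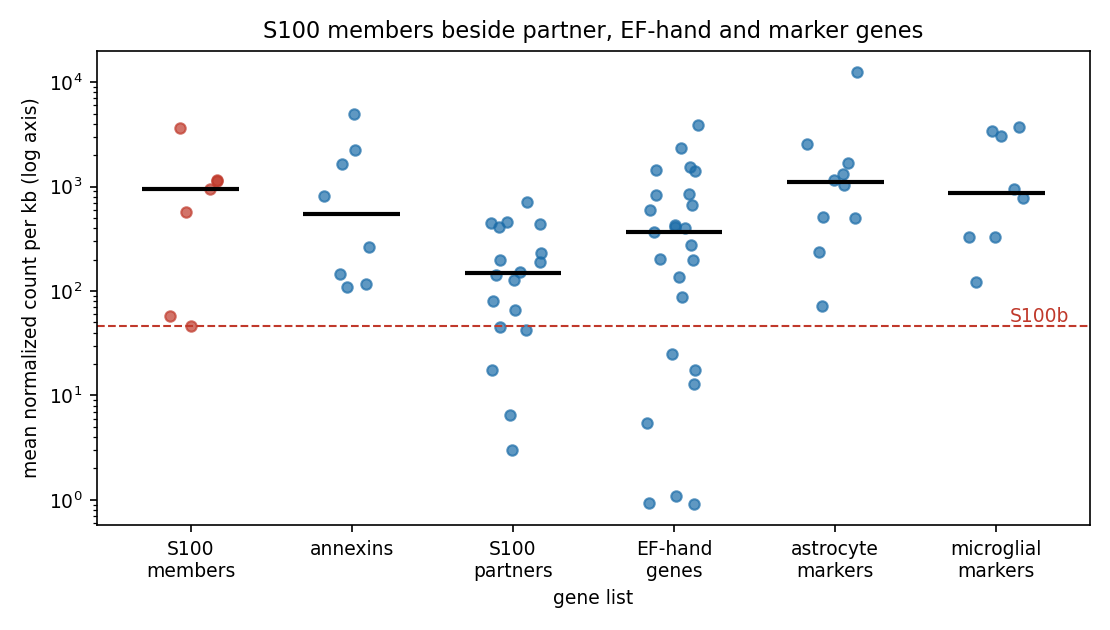
Mean normalized count per kb of each gene, on a log axis, for the S100 members (red) and 5 other gene lists (blue), with the median of each list as a black bar and the level of S100b as a dashed line. All 8 listed annexins and all astrocyte and microglial markers lie above the line, and the S100 members have a median of 952.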

How the data were processed

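Poly(A) RNA of 3 astrocyte cultures was sequenced from stranded libraries, per the labels' protocols. The deposited signal is a normalized count per gene and library, made by the authors with DESeq2 on mm10 per the submitters' processing notes. The aligner, counter, strand setting, annotation and gene filter are not given in the labels or files used. Whole reads were recovered for 100% of values within 0.05 reads. They summed to 9858626 to 25128038 reads per library, and a count of 0 allows up to 3 reads.

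Exon lengths (the union of a gene's exons) came from GENCODE vM21 on mm10, which matched 19366 of 19471 genes. Tests used a pseudocount of 1 and a minimum mean of 10 (plus 30 reads over the libraries in the chi-square test). Promoter windows, from 250 bases before to 50 after a start, came from RefSeq and matched all 7 members. Protein sequences were not used here. Python 3.11.15, numpy 2.4.6, pandas 2.3.3, SciPy 1.17.1, matplotlib 3.10.9, R 4.3.3, limma 3.58.1 and edgeR 4.0.16 were used, and the fits were tested on simulated data.

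Members, lists and tests were chosen with earlier results of these data known. The genes named are the members, the other S100 genes, the 8 listed annexins, the 4 highest and 3 lowest partners, the 4 highest and 2 lowest EF-hand genes, the highest marker of each list and the 3 nearest patterns to S100b. Others were picked with their values known. A gene that this rule selects is not reported here.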

Additional observations from a re-analysis of the deposited data

How the results depend on the processing

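Of the 252 results for pairs of members under another setting, 236 kept their direction and their side of the threshold, 4 lost the call, 5 gained one and 7 reversed. Without division by exon length the reversed log2 differences were -0.93 for S100a1 minus S100a6, -0.95 for S100a1 minus S100a16, -0.023 for S100a6 minus S100a16 and -1.004 for S100a4 minus S100b. With the longest basic transcript as length, chosen after seeing the data, they were -0.82 for S100a1 minus S100a6 and -0.22 for S100a1 minus S100a16, and with 1 replicate left out S100a1 minus S100a6 ran from -0.21 (without replicate 3) to 0.19. The cause was the length entered, except without replicate 3, where the cause was not tested. The genes higher than S100b numbered 6822, against 10398 without division by length and 4180 with separate variances. Those lower numbered 3708, against 7549 with a filter at a mean of 1, 1864 without division by length and 1880 with separate variances, and 2325 to 5101 with 1 replicate left out. Genes whose reads differed between libraries numbered 7726, or 4987 to 5425 with 1 replicate left out. The share of S100a11 was 39.4%, or 22.5% without division by length and 30.5% with the longest basic transcript. Without division by length S100a10 had the larger share, 23.8%. edgeR on the whole reads, a paired model of gene and comparison gene, put 6788 genes above S100b and 3729 below it. Groups could not be paired by replicate number, since there is 1 group. Depth limits S100b and S100a4 most, with 39 and 20 reads in replicate 3.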
